A study of Mus musculus with 15 samples.

Results

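The cytosolic ribosomal protein genes were followed in CD4+ T cells that had expanded in vivo with or without the kinase subunit AMPKα1. They were taken by symbol, as protein-coding genes of the mouse annotation whose name starts with Rpl or Rps and a digit, together with Rpsa and Fau, leaving out the Rps6k kinases and names ending in -ps. This gave 84 of the 55421 genes in the files, of which 43 belong to the large subunit and 32 to the small subunit. The other 9 match the symbol rule but are paralogs or partners of a ribosomal protein (Rpl3l, Rpl7l1, Rpl10l, Rpl22l1, Rpl36al, Rpl39l, Rps19bp1, Rps27l and Rps27rt), and they are described apart.

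Naive CD4+ T cells of C57BL/6 mice had been transferred into Rag2-/- recipients, which lack T and B cells of their own but keep their innate cells, and this transfer causes T cell colitis. Donors of WT cells carried the floxed Prkaa1 allele (Prkaa1 fl/fl) without Cre, and donors of KO cells were CD4-Cre Prkaa1 fl/fl, so both share the floxed allele. CD4-Cre acts in thymocytes, so the gene is lost in T cells well before the transfer. Mice were used at 6 to 8 weeks of age. CD4+ T cells were recovered 6 weeks later by sorting from 2 organs, spleen and mesenteric lymph nodes (mLN). Spleen gave 4 samples of each genotype, while mLN gave 4 KO samples and 3 WT samples (replicates 1, 2 and 4), the study having left out 1 more on quality. All were sequenced as 75-base single-end reads of mRNA.

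A cytosolic ribosome is built from a large and a small subunit, each made of ribosomal RNA and many proteins, most of them present in 1 copy per particle. The mRNAs of these proteins begin with a tract of C and T bases, the terminal oligopyrimidine tract, through which the kinase mTORC1 and the RNA-binding protein Larp1 adjust their translation. AMPK is a sensor of low cellular energy and restrains mTORC1. T cells enlarge their stock of ribosomes when they leave quiescence, and the study asked how activated T cells without AMPKα1 differ in genes of metabolism and translation.

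The reads counted on genes numbered 9363940 to 11283439 per sample. Levels are given as counts per 1000000 of these reads (CPM), and fold changes come from edgeR with TMM scaling. Over all 15 samples together the TMM factors lay between 0.963 and 1.037. Each comparison of 2 groups used factors estimated from its own samples. Prkaa1, the deleted gene, had 470 to 540 counts in WT spleen, 194 to 243 in KO spleen, 503 to 616 in WT mLN and 216 to 360 in KO mLN, so the groups did not overlap in either organ. All 5 T cell markers (Cd3e, Cd3d, Cd3g, Cd4 and Trac) were present, with a sum of 4449 to 5930 CPM over the 15 samples. The study describes the sequenced groups by their number of mice in a single experiment, so the p-values measure the spread between the recipients of that experiment, although the labels tie no sample to a mouse.

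The 84 genes lay on 20 chromosomes, with 13 on chromosome 7 and 4 on the X chromosome (Rpl10, Rpl36a, Rpl39 and Rps4x). Of them, 66 had a mean of at least 100 CPM over all samples, and the median of the means was 234 CPM. Levels between genes were compared per kilobase of annotated exon. The highest were Rpl32 with 1191 CPM per kb, Rps27 with 953 and Rpl4, which lines the tunnel through which the new protein leaves the ribosome, with 905. With the length of the principal transcript in place of all exons, Rps27 and Rpl32 remained among the 3 highest and Rps14 took the place of Rpl4. Rpl4 alone held 7.2% of all counts on the 84 genes, at 1772 CPM.

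The core ribosomal protein genes with the lowest counts, Rpl24, Rps10 and Rpl13a, all share exons with another gene. Rpl24, a protein at the interface of the subunits, had 0.535 to 2.37 CPM, with 47% of its exon bases (chr16:55966275-55971435, plus strand, GRCm38) also inside Gm28037. Rps10 had 1.8 to 4.32 CPM, and 28.7% of its exon bases (chr17:27630418-27636669, minus strand) lie in other genes, among them the read-through gene RPS10-NUDT3. Rpl13a (chr7:45125558-45128761, minus strand) had 23.9 to 44.5 CPM and shares 35.4% of its exon bases with Gm45713 and small RNA genes. Reads that fall on more than 1 gene are left out by the counting, so levels of these genes are lower limits. In all, 38 of the 84 genes overlap an exon of another gene, 27 on the same strand and 19 on the opposite strand. The strand setting of the counting is not given in the sources used here. Rpl35 shares 66.2% of its exon bases, on the opposite strand, and had a mean of 236 CPM. Rpl23a shares 62.3%, with genes on either strand, and had 212 CPM. The part of shared exons in the low counts was not tested. Pseudogenes named after a member exist for 58 genes, so their multimapping reads were also lost.

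Among the paralogs, Rpl10l had no count in any sample and Rpl3l, a paralog known from muscle, at most 3. The count of 0 for Rpl10l means at most 3 counts per library at this depth, a limit that covers counting error only. Rpl39l, known from testis, had 0 to 48 counts, with the highest in WT mLN replicate 1, and did not pass the filter on low counts in any comparison of 2 groups with all their samples. The remaining 81 genes were tested in each of these comparisons.

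The start sites are shown because these genes are grouped in textbooks by their oligopyrimidine start. The promoter table of RefSeq (GRCm38.p6) matched 65 of the 84 genes. A C followed by at least 7 C or T bases on the gene's own strand lay within 15 bases of the annotated start in 26 of these 65 genes (40%), beside 10.8% of the 27025 genes in the table. In the following stretches of 30 bases, centred on the start and written along the gene's strand, capitals mark this run of C and T. Fau, Rpl35 and Rpl15 are shown for their long runs, and the others because their values are described in detail.
Fau (chr19:6057932-6057961, plus strand): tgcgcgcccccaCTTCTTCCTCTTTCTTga
Rpl35 (chr2:39005117-39005146, minus strand): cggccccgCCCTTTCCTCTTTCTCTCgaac
Rpl15 (chr14:18270972-18271001, minus strand): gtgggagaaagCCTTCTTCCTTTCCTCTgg
Rps27 (chr3:90213634-90213663, minus strand): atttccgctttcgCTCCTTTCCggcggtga
Rps6 (chr4:86857353-86857382, minus strand): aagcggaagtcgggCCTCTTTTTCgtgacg
Rpl22l1 (chr3:28805493-28805522, plus strand): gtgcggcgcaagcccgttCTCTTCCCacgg
Rps26 (chr10:128626492-128626521, minus strand): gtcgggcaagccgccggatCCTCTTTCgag
Rpl5 (chr5:107900513-107900542, plus strand): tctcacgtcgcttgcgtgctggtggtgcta
Rpl6 (chr5:121204486-121204515, plus strand): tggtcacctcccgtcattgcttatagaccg
Rpl5 and Rpl6 hold no such run in this window. Within the 250 bases before and 50 after the start, on either strand, GGGCGG was found in 61.5% of the matched genes (38.2% of all genes), CCGGAAG in 38.5% (9.93%), AAGATGG in 16.9% (7.28%) and TATAAA in 9.23% (15.7%). The reverse of CCGGAAG holds several C and T bases in a row, so it can overlap a pyrimidine run. The median log2 fold change was the same or nearly so for genes with and without the run: 0.78 and 0.78 for mLN against spleen in WT, 0.59 and 0.64 in KO, -0.12 and -0.12 for KO against WT in spleen and -0.28 and -0.24 in mLN. This grouping rests on annotated starts, and Rpl19 and Rpl35a list starts both with and without a run. The starts used in these cells were not measured, so the medians do not compare mRNAs with and without the tract.

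Ribosomal protein genes took a larger share of the counts in mLN than in spleen T cells, in both genotypes. Of all counts in WT spleen, the 84 genes together held 2.03%, 2.03%, 1.79% and 2.23%, and in WT mLN they held 3.09%, 3.48% and 3.63%. In KO T cells they held 1.72%, 1.73%, 1.95% and 1.89% in spleen and 3.01%, 2.87%, 2.67% and 2.78% in mLN. No mLN sample fell into the range of the spleen samples. The group means were 2.02% ± 0.178 (SD, n = 4) in WT spleen, 1.82% ± 0.112 (SD, n = 4) in KO spleen, 3.4% ± 0.276 (SD, n = 3) in WT mLN and 2.83% ± 0.145 (SD, n = 4) in KO mLN. The mLN mean was therefore 1.68 times the spleen mean in WT and 1.55 times in KO. These are shares of sequenced mRNA, so a change in the amount of RNA per cell and a change in the kind of cells sorted cannot be told apart.

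**Figure D1:**
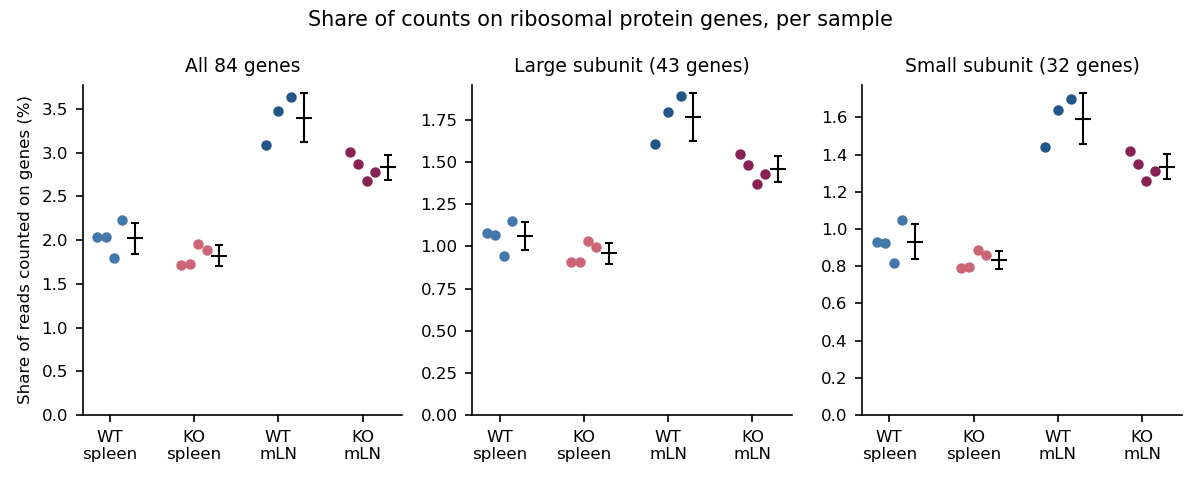
Share of reads on genes (%) that was counted on all 84 ribosomal protein genes, on the 43 of the large subunit and on the 32 of the small subunit, 1 point per sample, with the mean and SD of each group as a black bar. The mLN samples lie above the spleen samples of the same genotype in every panel, and the KO mLN samples (2.67% to 3.01%) lie below the WT mLN samples (3.09% to 3.63%).

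Both subunits moved together. Genes of the large subunit held 1.06% ± 0.0861 (SD, n = 4) of the counts in WT spleen and 1.77% ± 0.143 (SD, n = 3) in WT mLN, and those of the small subunit 0.93% ± 0.0925 (SD, n = 4) and 1.6% ± 0.135 (SD, n = 3). In KO the large subunit rose from 0.96% ± 0.0623 to 1.46% ± 0.0763 and the small subunit from 0.834% ± 0.048 to 1.33% ± 0.0677 (SD, n = 4 each). The ratio of large to small subunit counts lay between 1.09 and 1.16 over the 15 samples. In WT it was 1.1 to 1.16 in spleen and 1.1 to 1.12 in mLN, which overlap. In KO it was 1.14 to 1.16 in spleen and 1.09 to 1.1 in mLN, without overlap. The 9 paralogs and partners held far less, 0.0273% ± 6.79e-04 in WT spleen and 0.0387% ± 0.00214 in WT mLN.

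Within a group, single samples set the order of most genes. WT spleen replicate 3 had the lowest CPM of its group in 68 of the 81 tested genes and WT spleen replicate 4 the highest in 65. WT spleen replicate 3 also had the highest sum of the 5 erythroid markers, 1837 CPM against 89.9 to 877 CPM in its group, and the lowest sum of the quiescence and recirculation genes, 1133 CPM against 1640 to 2675 CPM. In WT mLN, replicate 1 was lowest in 74 genes. KO spleen replicates 1 and 2 were lowest in 39 and 37 genes and replicate 3 highest in 64, while KO mLN replicate 1 was highest in 61 and replicate 3 lowest in 57. The genes therefore did not vary independently between samples, and counts of genes that share a direction are not counts of separate observations.

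Gene by gene, 75 of the 81 tested ribosomal protein genes were higher in mLN than in spleen in WT T cells and none was lower (edgeR, Benjamini-Hochberg adjusted over all genes). Of all 14515 genes tested, 9.7% were called higher. The median log2 fold change of the 81 genes was 0.77, with an interquartile range of 0.62 to 0.88 and a full range of 0.08 to 1.31, beside a median of 0 over all genes. The WT groups did not overlap in 74 genes, all higher in mLN, where 13.3% of all genes did so in that direction and 18.2% in the other. None was lower by edgeR or DESeq2, which called 10.8% and 10.4% of all genes lower. At an unadjusted p under 0.05 there were 76 higher and 0 lower. Of all genes 34.6% passed in either direction, 2433 higher and 2595 lower. All 81 values were above 0, whereas 50% of all genes were below it.

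In KO T cells 72 of the 81 genes were higher in mLN and none lower, where 11.4% of all 14240 genes were called higher. The median was 0.61 (interquartile range 0.44 to 0.72, full range -0.31 to 1.2), beside 0.01 over all genes, and 2 of 81 values were below 0, against 49.2% of all genes. The groups did not overlap in 73 genes, all higher in mLN (13.3% of all genes, and 15.3% in the other direction). At an unadjusted p under 0.05 there were 74 higher and 0 lower. Of all genes 37.4% passed in either direction, 2514 higher and 2807 lower. Neither edgeR nor DESeq2 called any member lower, where they called 13.9% and 11.8% of all genes lower. Large and small subunit genes had close medians, 0.78 and 0.78 in WT and 0.6 and 0.64 in KO, and the 6 paralogs and partners tested had 0.47 and 0.34.

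**Figure D2:**
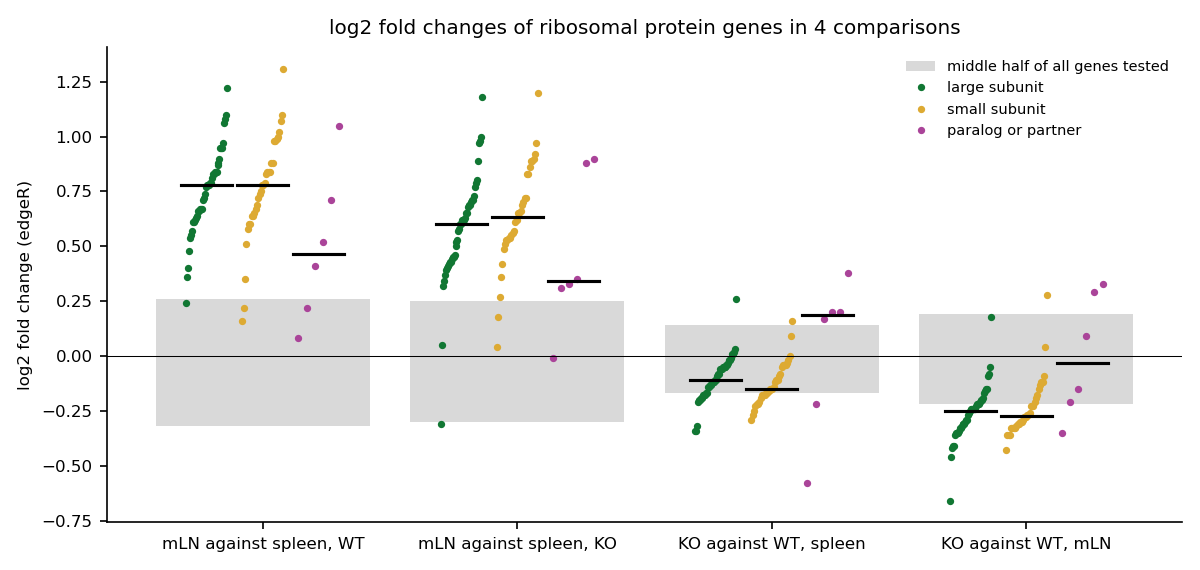
log2 fold changes (edgeR) of the tested ribosomal protein genes in the 4 comparisons, 1 point per gene, in green for the large subunit, yellow for the small subunit and purple for paralogs and partners, each with a black line at its median. The grey band is the interquartile range of all genes tested, and nearly all large and small subunit genes lie above it in mLN against spleen, while in KO against WT their medians lie between -0.28 and -0.11.

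Other measures moved with the organ as well. Of all genes, 9.7% were called higher and 10.8% lower in mLN in WT, and 11.4% and 13.9% in KO. Protein-coding genes outside this family with less than 2000 bp of exon had a median log2 fold change of 0.25 in WT and 0.2 in KO, beside -0.03 and -0.02 for longer ones, whereas the ribosomal protein genes gave 0.78 and 0.65 under 2000 bp and 0.72 and 0.57 above. All 4 granulocyte markers (S100a8, S100a9, Ngp and Camp) were lower in mLN in both genotypes, with sums of 148 to 715 CPM in the spleen samples and 16.8 to 96 CPM in mLN. The 7 macrophage and monocyte markers summed to 121 to 417 CPM in spleen and 53.1 to 240 CPM in mLN, and 5 of them were lower in KO mLN. Of the 8 genes of quiescence and recirculation (such as Tcf7 and Ccr7), 3 were higher in mLN in WT and 5 in KO, with sums of 1133 to 2675 CPM in spleen and 1721 to 3386 CPM in mLN. The 9 immediate early and heat shock genes (such as Fos and Hspa1a) summed to 933 to 1738 CPM in spleen and 696 to 1255 CPM in mLN, with 5 called lower in KO mLN and none in WT. Multimapping reads were 7.7% to 8.33% of all reads in spleen and 8.62% to 9.44% in mLN. Reads that the counting assigned to no annotated feature were 49.9% to 52.4% in spleen and 46.9% to 49.6% in mLN. Genes of the mitochondrial genome summed to 9748 to 14266 CPM in spleen and 7578 to 9515 CPM in mLN. Of these 37 genes 16 had at most 3 counts in every sample. The protein-coding mt-Co2, mt-Co3, mt-Atp6, mt-Atp8 and mt-Nd4l had none at all, so the sum covers only part of that genome. The CD8 markers summed to 1.61 to 5.11 CPM in spleen and 7.18 to 28.2 CPM in mLN. Of the 10 proliferation genes 1 was called higher in mLN in WT and 5 in KO. The part of each of these in the rise of the ribosomal protein genes was not tested.

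Rps26 and Rpl6 had the highest log2 fold changes between the organs in both genotypes. Rps26 (chr10:128624534-128626747), a small subunit protein at the exit of the mRNA channel, was at 164, 166, 146 and 181 CPM in WT spleen and 351, 406 and 434 CPM in WT mLN. In KO it was at 144, 138, 186 and 168 CPM in spleen and 402, 350, 330 and 377 CPM in mLN. All mLN samples were well above all spleen samples. Its log2 fold change was 1.31 (SE 0.10, adjusted p = 1.53e-04) in WT and 1.2 (SE 0.11, adjusted p = 2.35e-05) in KO.

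Rpl6 (chr5:121204481-121209241), of the large subunit, was at 236, 223, 202 and 253 CPM in WT spleen and 484, 521 and 554 CPM in WT mLN. The KO samples had 187, 185, 213 and 200 CPM in spleen and 462, 453, 416 and 440 CPM in mLN. The groups of both genotypes were far apart, with a fold change of 2.34 in WT and 2.26 in KO (SE 0.09 and 0.07 on the log2 scale).

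Rpl3 (chr15:80077791-80091868), which reaches towards the catalytic centre of the large subunit, followed closely. WT spleen had 450, 438, 394 and 477 CPM and WT mLN 838, 971 and 949 CPM, while KO spleen had 334, 334, 370 and 357 CPM and KO mLN 726, 717, 642 and 696 CPM. In both organs every KO sample was below every WT sample. The organ difference was 1.1 (SE 0.09) in WT and 1 (SE 0.07) in KO on the log2 scale. Fau, made as a fusion of a ubiquitin-like protein and a small subunit protein, rose by 1.07 and 0.9 on the same scale, and Rpl36a, which is X-linked, by 1.06 and 0.97. Rps29 of the small subunit rose by 1 and 0.89, and Rps27 by 0.98 and 0.83.

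Other genes named for a known role or trait were spread over this range. Rps6, whose protein is phosphorylated by the S6 kinases downstream of mTORC1, was at 360, 349, 284 and 353 CPM in WT spleen and 524, 595 and 567 CPM in WT mLN. In KO it had 283, 285, 306 and 303 CPM in spleen and 491, 472, 440 and 441 CPM in mLN. The mLN values were higher throughout, by 0.78 (SE 0.09) in WT and 0.65 (SE 0.07) in KO on the log2 scale. Rps19, the gene most often mutated in Diamond-Blackfan anaemia, rose by 0.83 and 0.62 on this scale, and Rpl38, needed for the translation of Hox mRNAs in the mouse embryo, by 0.95 and 0.77. Rpsa, also known as the laminin receptor, rose by 0.58 and 0.53, and Rpl10, which joins the large subunit late in its assembly, by 0.61 and 0.42. The X-linked Rps4x rose by 0.88 and 0.83, and Rpl41, the smallest ribosomal protein, by 0.9 and 0.69.

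Rpl5 and Rpl11, which together bind and block the p53 ligase Mdm2 when ribosome assembly fails, differed from each other. Rpl5 (chr5:107900502-107909005) was at 293, 336, 274 and 341 CPM in WT spleen and 350, 394 and 420 CPM in WT mLN. In KO it had 283, 281, 314 and 321 CPM in spleen and 316, 322, 293 and 307 CPM in mLN. The WT groups were apart by a log2 fold change of 0.36 (SE 0.10, adjusted p = 0.0288), whereas the KO groups overlapped with 0.05 (SE 0.07, adjusted p = 0.68). Rpl11 rose by 0.66 (SE 0.08) in WT and 0.52 (SE 0.08) in KO. In Rpl5, 26.7% of the exon bases lie in other genes, among them Fam69a on the opposite strand. The WT call of Rpl5 was lost under scaling to the total count (0.32, adjusted p = 0.0598), without WT mLN replicate 2 (adjusted p = 0.0716) or 4 (0.105), and without WT spleen replicate 1 (0.0842) or 3 (0.0538).

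Rpl22, which is needed for the development of T cells, and its paralog Rpl22l1 both rose. Rpl22 went from 77.2, 75.3, 71.7 and 88.4 CPM in WT spleen to 102, 117 and 115 CPM in WT mLN, and from 72.7, 73.3, 86.8 and 83 CPM in KO spleen to 111, 96.5, 92 and 101 CPM in KO mLN. The log2 fold change was 0.55 (SE 0.09) and 0.34 (SE 0.10), and the KO call was lost without KO mLN replicate 1 (adjusted p = 0.0514) or KO spleen replicate 1 (0.0697) or 2 (0.0789). Rpl22l1 went from 63.5, 77.2, 64.6 and 81.9 CPM to 141, 150 and 141 CPM in WT and from 63.3, 57.3, 61.9 and 61.5 CPM to 115, 117, 103 and 119 CPM in KO. Its log2 fold change was 1.05 (SE 0.10) in WT and 0.9 (SE 0.08) in KO, the highest of the paralogs tested.

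Members that stayed near or below the others were mostly paralogs or genes with few counts. In WT the 6 tested genes that were not called were Rps19bp1 (log2 fold change 0.08), Rps10 (0.16), Rpl7l1 (0.22), Rps12 (0.22), Rpl24 (0.24) and Rps27rt (0.52). In KO those not called included Rpl24 (-0.31), Rps19bp1 (-0.01), Rps12 (0.04), Rpl5 (0.05), Rps10 (0.27), Rps27l (0.31), Rpl36al (0.35) and Rps27rt (0.88, adjusted p = 0.0611). Rps12, of the small subunit, was named after its values were seen. Rps12 was at 83.7, 90.1, 74.8 and 104 CPM in WT spleen and 85.8, 102 and 111 CPM in WT mLN, and at 64.9, 68.4, 81.8 and 72.9 CPM in KO spleen and 80.4, 73.4, 67.3 and 75.2 CPM in KO mLN. Its groups overlapped in both genotypes. More than 3 scaled median absolute deviations from the median of the members lay Rps19bp1 and Rps10 in WT and Rpl24 in KO.

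**Figure D3:**
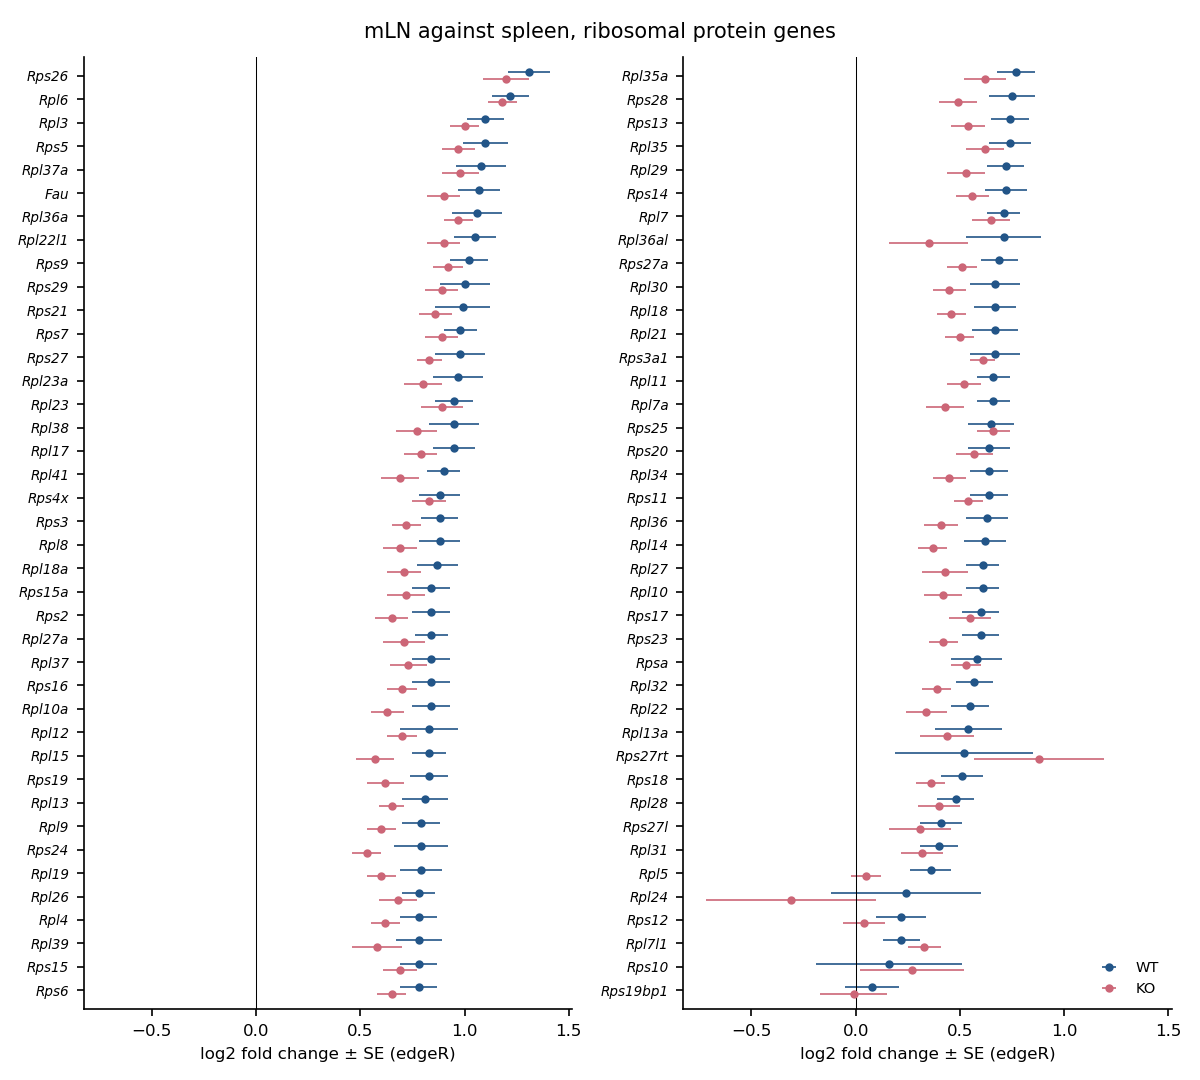
log2 fold change with its SE (edgeR) of mLN against spleen for all tested genes but 1, in blue for WT and in pink for KO, ordered by the WT value with the highest at the top left. Rps26 and Rpl6 lead in both genotypes, and Rps10, Rpl24 and Rps27rt have the widest errors.

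KO T cells had lower values than WT T cells for most ribosomal protein genes in mLN, but only 1 gene passed the test. The KO mLN share of counts was 0.833 times the WT mLN share, and the 4 KO samples (2.67% to 3.01%) lay below the 3 WT samples (3.09% to 3.63%). The study itself drew attention to ribosomal gene sets in these samples, so the direction is not independent evidence here. The median log2 fold change of the 81 genes was -0.26 (interquartile range -0.33 to -0.19), beside 0 over all genes, and 75 of 81 values were below 0, against 50.4% of all 14359 genes. At an unadjusted p under 0.05 there were 57 of the 81 genes, 55 lower and 2 higher. Of all genes 15.7% passed in either direction, 1165 lower and 1088 higher. After adjustment 1 was lower and 0 were higher, against 0.292% of all genes called lower and 0.348% called higher. The groups did not overlap in 41 genes lower in KO, against 6.94% of all genes, and in 1 gene higher (7.49%).

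The number of genes called lower in KO mLN depended on the test. DESeq2 called 25 lower (2.08% of its genes), the fit without a filter on low counts 17 (1.46%) and a fit of all 15 samples 13 (1.88%), and none of these called any higher (2.12%, 1.25% and 1.35% of all genes). RLE size factors left 0 (0.272% of all genes). The replicate block also left 0, where it called 0% of all genes lower and 0.00696% higher. It matched KO and WT samples by number, although same-numbered deviations had r of only -0.053 to 0.003 over all genes. Without WT mLN replicate 1 the number called lower was 3 (Rpl12, Rpl36a and Rps27), where 0.295% of all genes were. Without KO mLN replicate 1 it was 2 (Rpl3 and Rpl7a, the latter named after its value was seen), where 0.382% were. It was 0 without WT mLN replicate 2 or 4, or without KO mLN replicate 2, 3 or 4, and where Rpl3 was not called in these fits with 1 sample less its adjusted p was 0.0505 to 0.183.

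The gene that passed was Rpl3, with 838, 971 and 949 CPM in WT and 726, 717, 642 and 696 CPM in KO mLN, which do not overlap. Its log2 fold change was -0.41 (SE 0.08, adjusted p = 0.0496). Rpl4 had 2359, 2451 and 2632 CPM in WT and 2117, 2073, 1906 and 1901 CPM in KO mLN, again without overlap, with a log2 fold change of -0.32 (SE 0.07, adjusted p = 0.078). Rpl12, which sits at the base of the stalk of the large subunit, had 171, 226 and 230 CPM in WT and 166, 148, 146 and 150 CPM in KO mLN, a log2 fold change of -0.46 (SE 0.11, adjusted p = 0.0957).

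Rpl36a had 155, 205 and 195 CPM in WT and 136, 142, 137 and 145 CPM in KO mLN, a log2 fold change of -0.41 (SE 0.10, adjusted p = 0.0983). Rps6 had -0.29 (SE 0.08, adjusted p = 0.122), Rpsa -0.33 (SE 0.08, adjusted p = 0.0972) and Rpl5 -0.34 (SE 0.08, adjusted p = 0.104). For each of these genes all KO samples lay below all WT samples, though none passed the adjusted threshold. Rps26, which had the highest organ difference, had only -0.13 (SE 0.10, adjusted p = 0.592), and its WT and KO mLN samples overlapped.

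In spleen the shift was smaller, and no gene passed. The KO share was 0.903 times the WT share, and the KO samples (1.72% to 1.95%) overlapped the WT samples (1.79% to 2.23%). The median log2 fold change was -0.12 (interquartile range -0.18 to -0.04), beside 0 over all 14254 genes, with 69 of 81 values below 0 (50.7% of all genes). At an unadjusted p under 0.05 there were 21 genes, 19 lower and 2 higher. Of all genes 20.5% passed in either direction, 1546 lower and 1378 higher. The total of 21 is thus near the share of all genes, but the members lay more to the lower side. After adjustment 0 genes were lower and 0 higher by edgeR, against 0.751% and 0.547% of all genes. The genotypes did not overlap in 5 genes lower in KO (Rpl3, Rpl12, Rpl22l1, Rps9 and Rps18, the last 2 named after their values were seen), where 6.31% of all genes did so, and in 1 higher, Rpl7l1 (5.68%). DESeq2 called 2 lower (2.77% of its genes), Rpl3 and Rpl36a, and 0 higher (2.55%), and a fit of all 15 samples called 0 lower (0.279%) and 0 higher (0.272%), whereas the fit without a filter called 4 lower (2.11%), Rpl3, Rpl12, Rpl36a and Rpsa, and Rps27l higher (1.92%). Without WT spleen replicate 3 edgeR called 2 lower, Rpl3 and Rpl36a, where 1.27% of all genes were called lower. Beside this comparison, 3 immediate early and heat shock genes were called higher and 1 quiescence and recirculation gene lower in KO spleen. The stroma and endothelium markers summed to 65.7 to 92 CPM in KO and 94.5 to 111 CPM in WT spleen, and the erythroid markers to 40.2 to 104 CPM in KO and 89.9 to 1837 CPM in WT, with none called in either list. Their part in the values of the ribosomal protein genes was not tested.

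The smallest adjusted p in spleen again belonged to Rpl3, with 450, 438, 394 and 477 CPM in WT and 334, 334, 370 and 357 CPM in KO, a log2 fold change of -0.32 (SE 0.07, adjusted p = 0.0634). Rpl12 had 114, 119, 99.9 and 151 CPM in WT and 94.9, 91.8, 91.9 and 98.7 CPM in KO, with -0.34 (SE 0.10, adjusted p = 0.116). Rpl36a had 84.9, 96.6, 77.4 and 107 CPM in WT and 69.4, 69.8, 77.5 and 69 CPM in KO, with -0.34 (SE 0.09, adjusted p = 0.0906). Rpl3 and Rpl12 did not overlap between the genotypes, while 1 KO sample of Rpl36a just exceeded the lowest WT sample. Rpl5 had -0.04 (SE 0.08) and Rps6 -0.18 (SE 0.08), both with overlapping groups.

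**Figure D4:**
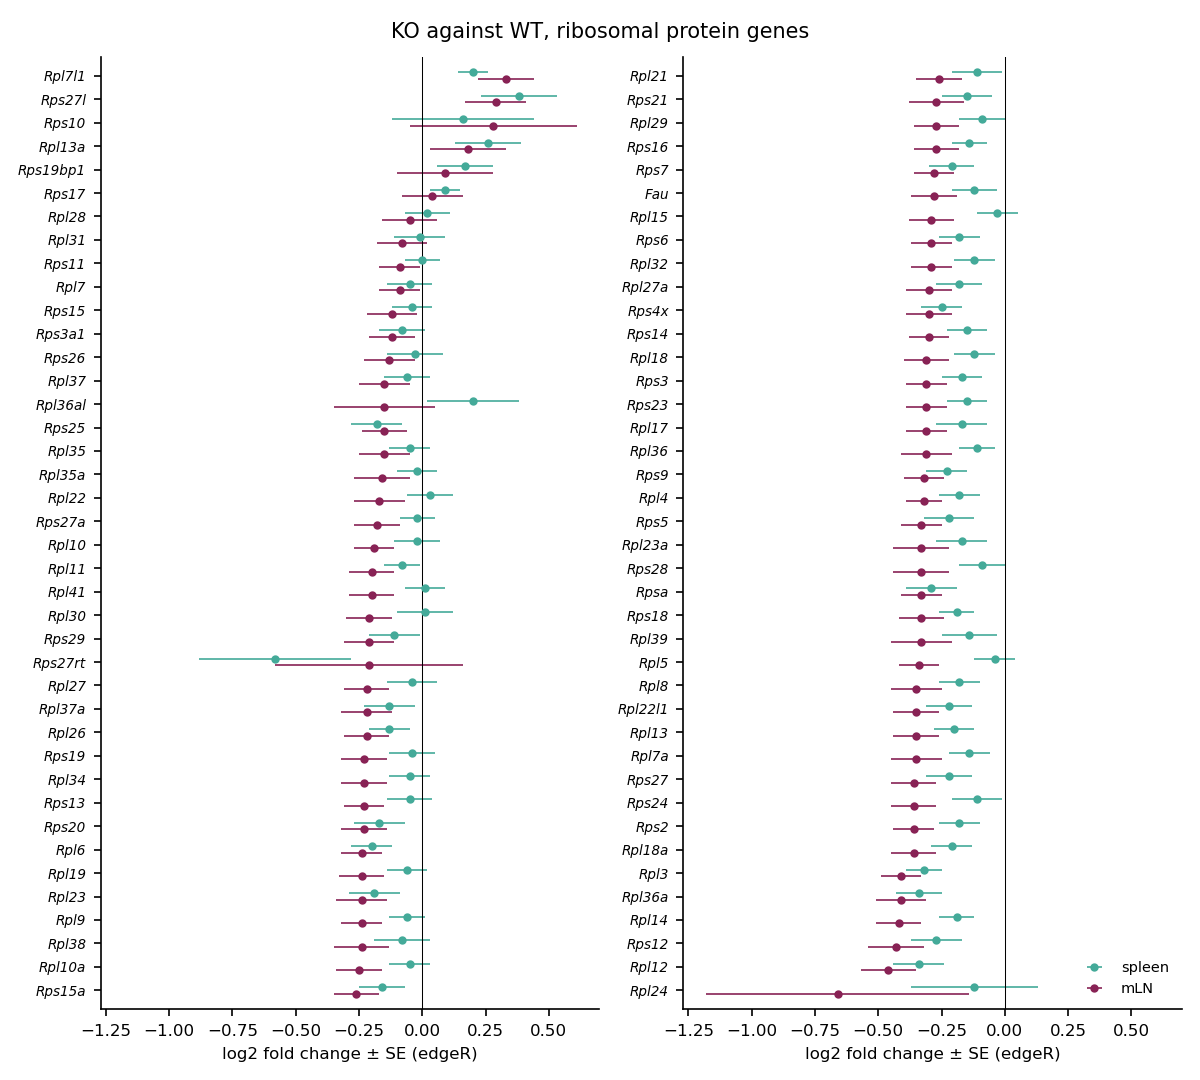
log2 fold change with its SE (edgeR) of KO against WT for all tested genes but 1, in green for spleen and in purple for mLN, ordered by the mLN value with the highest at the top left. Most purple points lie left of 0 and of the green points, and Rpl7l1 and Rps27l lie to the right of 0 in both organs.

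Whether the genotype difference differed between the organs was asked with the interaction over all 15 samples. Of the 82 genes tested, 78 had a value below 0, meaning a lower KO against WT value in mLN than in spleen, beside 51% of all 15438 genes, with a median of -0.14. None was called (0% of all genes), the smallest adjusted p was 1, and DESeq2 called none either. At an unadjusted p under 0.05 there was 1 gene, Rpl5 (-0.30, SE 0.12), beside 4.22% of all genes. A difference between the organs was therefore not detectable in any single gene with these samples. All 43 genes of the large subunit had a value below 0, and 30 of the 32 of the small subunit.

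Large and small subunit genes shifted alike between the genotypes. The medians were -0.25 and -0.28 in mLN and -0.11 and -0.15 in spleen. The 6 tested paralogs and partners had medians of -0.03 in mLN and 0.18 in spleen.

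The genes that departed most from the other members were paralogs or partners and the core genes Rpl13a, Rps10 and Rpl24. By more than 3 scaled median absolute deviations these were Rpl7l1, Rps27l, Rpl13a, Rps10, Rps19bp1 and Rpl24 in mLN, and Rpl7l1, Rps27l, Rpl13a, Rpl36al and Rps27rt in spleen. Rpl7l1 (chr17:46773907-46782672), a paralog of Rpl7, had 105, 102, 94.5 and 98.1 CPM in WT spleen and 118, 115, 116 and 107 CPM in KO spleen. In mLN it had 121, 120 and 98.5 CPM in WT and 139, 165, 132 and 137 CPM in KO. All KO samples lay above all WT samples in both organs, the only tested member for which that was so. The log2 fold change was 0.2 (SE 0.06, adjusted p = 0.0985) in spleen and 0.33 (SE 0.11, adjusted p = 0.205) in mLN.

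Rps27l, a paralog of Rps27 known as a target of p53, had 81.5, 67.7, 76.2 and 70.9 CPM in WT spleen and 78.3, 80, 101 and 123 CPM in KO spleen. In mLN it had 106, 90.7 and 91.8 CPM in WT and 123, 109, 102 and 140 CPM in KO. The groups overlapped in both organs, with log2 fold changes of 0.38 (SE 0.15, adjusted p = 0.182) and 0.29 (SE 0.12, adjusted p = 0.288). Rps27 itself had -0.22 (SE 0.09) in spleen and -0.36 (SE 0.09) in mLN, with adjusted p of 0.208 and 0.1.

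**Figure D5:**
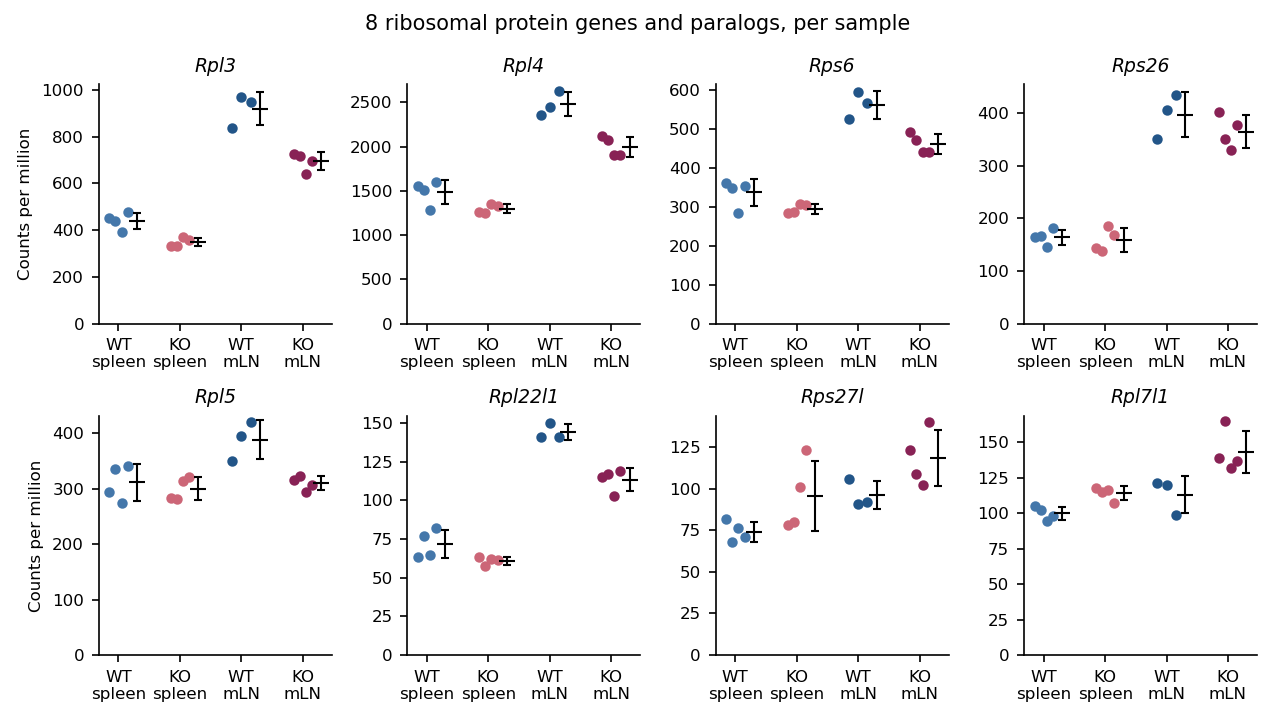
CPM per sample of Rpl3, Rpl4, Rps6, Rps26, Rpl5, Rpl22l1, Rps27l and Rpl7l1, 1 point per sample, with the mean and SD of each group as a black bar. The first 4 genes and Rpl22l1 stand higher in all mLN than in all spleen samples, Rpl5 in KO does not, and Rps27l and Rpl7l1 have higher KO than WT means in both organs.

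Rpl22l1, also a paralog, went with the core genes, with a log2 fold change of -0.35 (SE 0.09, adjusted p = 0.102) in mLN and -0.22 (SE 0.09, adjusted p = 0.192) in spleen and no overlap of the genotypes in either organ. Rps19bp1, which binds Rps19 and is also known as a regulator of the deacetylase Sirt1, was at 16.1 to 26 CPM in all samples and had 0.09 (SE 0.19) in mLN and 0.17 (SE 0.11) in spleen. Rpl13a had 0.18 (SE 0.15) and 0.26 (SE 0.13). Rpl24 had -0.66 (SE 0.52) in mLN and Rps10 0.28 (SE 0.33), both resting on few counts. Rps27rt, a processed copy of Rps27 with 0.886 to 3.07 CPM, had -0.58 (SE 0.30) in spleen, and its reads cannot be told from those of Rps27 where the sequences are alike. None of these values passed the adjusted threshold.

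Other genes of the translation machinery were read from lists. Rplp2, of the stalk of the large subunit, was higher in mLN in WT (0.39, adjusted p = 0.0388) and had 0.14 (adjusted p = 0.206) in KO. Rplp0, also of the stalk, rose by 1 (SE 0.10) in WT and 0.88 (SE 0.08) in KO, and had a KO against WT value of -0.35 (adjusted p = 0.0729) in mLN. Of 20 elongation factors and other mRNAs with an oligopyrimidine start, 14 were higher in mLN in WT (9.7% of all genes) and 13 in KO (11.4%), with none lower (10.8% and 13.9%). In KO against WT mLN, where 0.292% of all genes were called lower, 2 of the 20 were lower, Eef2 (-0.40, SE 0.07, adjusted p = 0.0326), which moves the ribosome along the mRNA, and Eef1a1 (-0.37, SE 0.07, adjusted p = 0.0422), which brings in the aminoacyl-tRNA. By edgeR none of the 20 was called in spleen.

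Initiation factors and genes of ribosome biogenesis were called in both directions between the organs, where 9.7% of all genes were called higher and 10.8% lower in WT, and 11.4% and 13.9% in KO. Of 32 initiation factors 10 were higher and 3 lower in mLN in WT, and 11 and 5 in KO. Of 62 biogenesis genes 16 were higher and 2 lower in WT, and 17 and 4 in KO. Neither list had a gene called between the genotypes by edgeR, with 5 initiation factors and 15 biogenesis genes at an unadjusted p under 0.05 in spleen (20.5% of all genes) and 6 and 9 in mLN (15.7%).

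Of 12 tested regulators 3 were called between the genotypes in spleen, where 0.547% of all genes were called higher and 0.751% lower. Myc, which drives transcription of ribosome genes, was lower in KO by edgeR (-0.98, SE 0.20, adjusted p = 0.0453), and its antagonist Mxd4 (0.84, SE 0.11, adjusted p = 0.0123) and its partner Max (0.31, SE 0.06, adjusted p = 0.0453) were higher. In mLN Mxd4 was higher (0.95, SE 0.15, adjusted p = 0.0326) and Myc had -0.91 (SE 0.20, adjusted p = 0.077). Larp1 was higher in mLN than in spleen by 0.91 (SE 0.10) in WT and 0.85 (SE 0.09) in KO. In mLN the quiescence and recirculation genes also had lower sums in KO (1721 to 2359 CPM) than in WT (2797 to 3386 CPM). Of these 8 genes 1 was called lower, where 0.292% of all genes were. The proliferation genes had higher sums in KO mLN (939 to 1263 CPM) than in WT mLN (726 to 885 CPM) with none of 10 called by edgeR, and so had the CD8 markers (18.9 to 28.2 CPM against 7.18 to 11.6 CPM), again with none called. Of the 9 immediate early and heat shock genes 1 was called lower in KO mLN, where 0.292% of all genes were. The granulocyte markers summed to 16.8 to 67 CPM in KO and 59.9 to 96 CPM in WT, which overlap, with none called. The part of these lists in the lower values of the ribosomal protein genes was not tested.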

How the data were processed

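Counts of reads per gene were deposited by the authors, who aligned single-end reads of each sample with STAR 2.6.1a to GRCm38 with GENCODE release 23 and counted reads per gene in the same step. The counts were not normalized, and depth was 9363940 to 11283439 reads on genes. Exon lengths and overlaps came from GENCODE release 21 of the same build, and start sequences from the RefSeq promoter table. Members and lists were chosen with earlier results of these data known.

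Counts were filtered (filterByExpr), scaled by TMM and tested in edgeR 4.0.16 (R 4.3.3) by the quasi-likelihood test, with Benjamini-Hochberg adjustment over all genes. A gene was called at an adjusted p under 0.05. The SE is the log2 fold change divided by the root of F. Each comparison used its own samples and the interaction all 15. The script was tested on simulated data with the same spread set for every gene. For KO against WT, a log2 change of 0.5 was recovered in 24% of changed genes in spleen and 10% in mLN. For the interaction it was recovered in 8%. The spread was not taken from the members, so these shares are not theirs. Genes named were 16 fixed by role, those with the smallest p or extreme fold changes per comparison, outlying members (over 3 scaled median absolute deviations) and the 3 highest levels per length. DESeq2 1.42.0, RLE and total count scaling, TMM without members, no filter, a fit of all samples, a replicate block and leaving out each sample were the alternatives. Deviations of same-numbered samples correlated with r = 0.258, 0.243 and 0.291 between organs in WT over all genes. Over the members alone r was 0.914, -0.216 and 0.754 in WT and 0.345, -0.755, -0.167 and 0.184 in KO. The numbers entered only the replicate block. The main organ comparisons and the interaction were unpaired, so their p-values and SEs treat spleen and mLN samples of the same number as independent. The labels do not say that a number marks 1 mouse. A few genes of these lists are not reported here by name.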

Additional observations from a re-analysis of the deposited data

Results flagged for a closer look

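Of 96 groups of 4 samples tested, 3 held a sample far from the others, and chance flags about 1 in 20. Rpl36a was at 77.5 CPM in KO spleen replicate 3 and at 69 to 69.8 CPM in the other samples of that group. Rpl41 was at 193 CPM in WT spleen replicate 3 and at 204 to 205 CPM in the others. Rps6 was at 284 CPM in WT spleen replicate 3 and at 349 to 360 CPM in the others.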

How the results depend on the processing

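The organ comparisons gave 71 to 74 genes called higher in WT and 68 to 73 in KO when 1 sample was left out, and the replicate block left 75 and 72. In KO against WT mLN the number called lower was 25 by DESeq2, 17 without the filter, 13 in the fit of all 15 samples, 0 with RLE size factors, 0 with the replicate block and 0 to 3 without 1 sample. In spleen it was 2 by DESeq2, 4 without the filter (and 1 higher) and 0 to 2 without 1 sample. The replicate block changed no other count. Over all genes, same-numbered samples did not pair between the genotypes (r of -0.21 to 0.146 in spleen and -0.053 to 0.003 in mLN) or throughout between the organs in KO (0.026 to 0.259). With nuclear protein-coding genes as the denominator the KO share was 1.94% in spleen and 3% in mLN, beside 1.82% and 2.83% of all counts. WT shares with this denominator are not given here. These KO values can therefore not be set against the WT shares of all counts. Values near 0 changed sign. Without 1 sample Rpl5 in KO against WT spleen ranged from -0.08 to 0.00, Rps19bp1 in mLN from -0.06 to 0.17, Rps10 between the organs in WT from -0.01 to 0.35, Rps19bp1 and Rps12 in KO from -0.16 to 0.08 and -0.01 to 0.11, and the interaction of Rps27l from -0.18 to 0.07. Rps19bp1 between the organs in KO was 0.00 with TMM without the members and 0.01 in the fit of all 15 samples. The cause of these changes was not tested. Rpl24 had 6 to 24 counts per sample, and the SE of its log2 fold change was 0.25 to 0.52 over the comparisons of 2 groups.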

Other observations

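Mitochondrial ribosomal proteins are encoded in the nucleus and build the separate ribosome of mitochondria. Of 77 tested, 36 were higher in mLN than in spleen in WT (9.7% of all genes) and 27 in KO (11.4%) by edgeR, with none lower (10.8% and 13.9%), and medians of 0.32 and 0.22 on the log2 scale, below those of the cytosolic genes. Between the genotypes none of the 77 was called in either organ, with 19 in spleen (20.5% of all genes) and 10 in mLN (15.7%) at an unadjusted p under 0.05 and medians of 0.04 and 0.01.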
